A study of Mus musculus with 4 samples.

Results

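Genes of the brain endothelium, 10 in number, were read in mouse prefrontal cortex (PFC) after knockdown of *Ash1L*, the gene of a histone lysine methyltransferase. The genes were taken by name: *Cldn5*, *Pecam1* and *Cdh5* of the cell junctions, *Slc2a1*, *Mfsd2a*, *Slco1a4* and *Abcb1a* of the transporters, *Flt1* and *Tek* of the receptors, and *Itm2a*. They are 10 of the 23420 gene symbols in the count files, 10 of 10 were found there, and 10 of 10 passed the filter on low counts together with the other genes of the 16232 tested. The rule used no measured value, but the list was drawn up with earlier results of these data known.

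The 4 samples were RNA from PFC punches of C57BL6/J mice, which carried GFP fluorescence from an injected adeno-associated virus (AAV9). The 2 *Ash1L* shRNA samples came from mice given a virus that expressed a short hairpin RNA against *Ash1L* from the U6 promoter, and the 2 control samples from mice given a GFP virus, called a scrambled shRNA virus in the study's methods. The methods state injection at 5 weeks of age, in males and females, and tissue of 3 mice pooled per sample, whereas the series description names 3 shRNA and 2 control mice of 6 to 8 weeks. U6 is active in most cell types, the virus carried no endothelial promoter, and each sample was lysed whole, so that the values are those of a tissue with neurons, glia and vessels together.

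Brain capillaries differ from those of most organs in that their endothelial cells are sealed by continuous tight junctions, form few transport vesicles, and carry dedicated transporters for sugars, amino acids and lipids together with pumps that return drugs to the blood. This blood-brain barrier is induced and kept by Wnt ligands from neural cells and by contact with pericytes and astrocyte endfeet. When endothelial cells are activated, sprout or leak, they express adhesion molecules, VEGF receptors, basement membrane collagens and caveolar proteins at higher levels.

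Library depth ran from 14251190 to 35764874 counts. Levels are given as normalized counts-per-million (CPM), which are counts divided by the library size after TMM scaling. *Ash1l* was read at 245 and 290 CPM in the control samples and at 215 and 137 in the shRNA samples, both below the controls, a log2 fold change of -0.60 ± 0.22 (SE, n = 2 per group). Its unadjusted p of 0.0362 and size met the study's definition of a DOWN gene (unadjusted p under 0.05 and at least 1.2-fold lower; UP is the same upward), and the adjusted p was 0.275 (quasi-likelihood test of edgeR, Benjamini-Hochberg). That call was lost without control sample 1 (-0.71), without control sample 2 (-0.48) and without shRNA sample 2 (-0.31).

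None of the 10 endothelial genes was called in either direction. There were 0 DOWN genes, where 8.28% of the genes tested were DOWN, and 0 UP genes, where 8.61% were UP. The lowest unadjusted p among the 10 was 0.184 and the lowest adjusted p was 0.469 in the same test, and DESeq2 also gave 0 genes at an unadjusted p under 0.05. Their median log2 fold change was -0.03, beside -0.003 for the genes tested, and single values ran from -0.26 in *Abcb1a* to 0.22 in *Slc2a1*. Their summed level was 440 and 414 CPM in the controls and 440 and 411 CPM in the shRNA samples. Since the tissue was lysed whole, fewer endothelial cells and less RNA per cell could not be told apart in any of these values.

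In 1 gene (*Abcb1a*) both shRNA samples lay below both controls, in 2 (*Flt1* and *Cdh5*) both lay above, and in 7 the groups overlapped. Over the genes tested, 26.8% had both shRNA samples below and 26.5% had both above, a background from which 1 of 10 and 2 of 10 cannot be set apart.

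**Figure D1:**
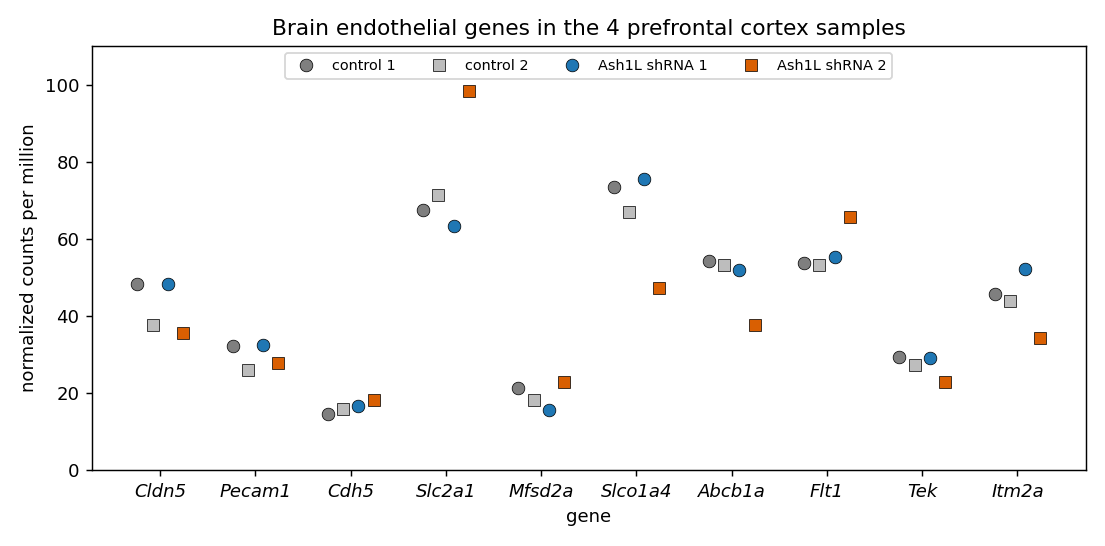
Normalized CPM (vertical axis, from 0) of the 10 genes (horizontal axis) in the 4 samples, 1 point per sample, with circles for sample 1 and squares for sample 2 of each group. The orange square of *Ash1L* shRNA sample 2 is, for example, the highest point of its gene for *Slc2a1* (98.2) and *Flt1* (65.7) and the lowest for *Slco1a4* (47.2) and *Abcb1a* (37.8).

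The genes were ordered in the control samples by level per transcript length, as transcripts-per-million (TPM). *Cldn5* was highest with 120 and 89.7 TPM, followed by *Itm2a* with 92.1 and 84.5 TPM. *Slc2a1* had 72.9 and 73.6 TPM and *Slco1a4* had 67.6 and 58.9 TPM. The 4 leading genes were thus a junction protein, a membrane protein of the capillary wall and both a sugar and an organic anion transporter. Then came *Abcb1a* with a mean of 37.0 TPM, *Mfsd2a* with 31.7, *Pecam1* with 24.2, *Tek* with 20.8, *Flt1* with 16.8 and *Cdh5* with 13.2, a range of 7.97-fold from the first to the last. The control values of *Cldn5* and *Itm2a* overlapped, as did those of *Pecam1* and *Tek*, whereas the other neighbours in this order did not.

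*Cldn5* encodes claudin-5, the main claudin of the tight junctions in brain capillaries. It lies on mm10 chr16:18776847-18778262, plus strand. Its level was 48.2 and 37.8 CPM in control samples 1 and 2, and 48.4 and 35.6 CPM in shRNA samples 1 and 2. The shRNA samples enclosed the controls, with the first of each group nearly equal. The log2 fold change was -0.03 ± 0.20 (SE, n = 2 per group; 95% interval -0.50 to 0.45).

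*Pecam1* (chr11:106654217-106750628, minus strand) encodes the adhesion molecule CD31 of endothelial cell contacts. It had 32.1 and 25.9 CPM in the controls and 32.4 and 27.9 CPM in the shRNA samples. The groups overlapped, and the log2 fold change was 0.06 ± 0.16 (95% interval -0.33 to 0.45). *Cdh5* (chr8:104101625-104144511, plus strand), the gene of VE-cadherin in the adherens junctions, had 14.7 and 15.9 CPM in the controls and 16.6 and 18.3 CPM in the shRNA samples. Here both shRNA samples were higher, yet the log2 fold change of 0.19 ± 0.16 (95% interval -0.18 to 0.57) did not pass, at an unadjusted p of 0.261 in the quasi-likelihood test across genes by edgeR.

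*Slc2a1* (chr4:119108711-119137983, plus strand) encodes GLUT1, the glucose transporter of the barrier, which astrocytes also express. It had 67.5 and 71.4 CPM in the controls, and 63.2 CPM in shRNA sample 1 against 98.2 in shRNA sample 2. One shRNA sample was below both controls and the other above both. The log2 fold change was 0.22 ± 0.21, with a 95% interval from -0.30 to 0.73.

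*Mfsd2a* (chr4:122946850-122961188, minus strand) encodes a lysolipid carrier that brings omega-3 fatty acids into the brain and holds back vesicle transport. Its level was 21.2 and 18.3 CPM in the controls, and 15.6 and 23.0 CPM in the shRNA samples. Again the first shRNA sample lay below and the second above both controls, for a log2 fold change of -0.04 ± 0.22 (95% interval -0.56 to 0.49).

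*Slco1a4* (chr6:141805440-141856199, minus strand) encodes the organic anion transporter Oatp1a4, found on both faces of the capillary wall. It had 73.4 and 67.0 CPM in the controls, 75.5 CPM in shRNA sample 1 and 47.2 CPM in shRNA sample 2. The direction was opposite to that of *Slc2a1*, with the first shRNA sample above and the second below both controls. The log2 fold change of -0.19 ± 0.22 had the widest error of the 10 genes (95% interval -0.73 to 0.35).

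*Abcb1a* (chr5:8660077-8748575, plus strand) encodes the P-glycoprotein of mouse brain capillaries, the pump that keeps many drugs out of the brain. It had 54.2 and 53.1 CPM in the controls, and 52.0 and 37.8 CPM in the shRNA samples. Both shRNA samples were lower, the first by about the gap between the controls. Its log2 fold change of -0.26 ± 0.17 (95% interval -0.67 to 0.16) was the lowest of the 10 genes, with an unadjusted p of 0.184 and an adjusted p of 0.469 in edgeR's quasi-likelihood test.

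*Flt1* (chr5:147561604-147726011, minus strand) encodes VEGF receptor 1, which binds VEGF-A tightly but signals weakly. Its level was 53.8 and 53.3 CPM in the controls, and 55.4 and 65.7 CPM in the shRNA samples, so that both shRNA samples were higher. The log2 fold change was 0.18 ± 0.13, the narrowest error of the 10 genes (95% interval -0.13 to 0.49). *Tek* (chr4:94739289-94874976, plus strand) encodes TIE2, the angiopoietin receptor that keeps vessels quiescent. It had 29.4 and 27.3 CPM in the controls and 29.2 and 22.9 CPM in the shRNA samples. These groups overlapped, for a log2 fold change of -0.12 ± 0.16 (95% interval -0.51 to 0.27).

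*Itm2a* (chrX:107397099-107403376, minus strand) encodes a membrane protein enriched in brain endothelial cells. It was read at 45.6 and 43.8 CPM in the controls, at 52.1 CPM in shRNA sample 1 and at 34.2 CPM in shRNA sample 2. The first shRNA sample was above and the second below both controls, as with *Slco1a4*, and the log2 fold change was -0.05 ± 0.21 (95% interval -0.55 to 0.45).

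**Figure D2:**
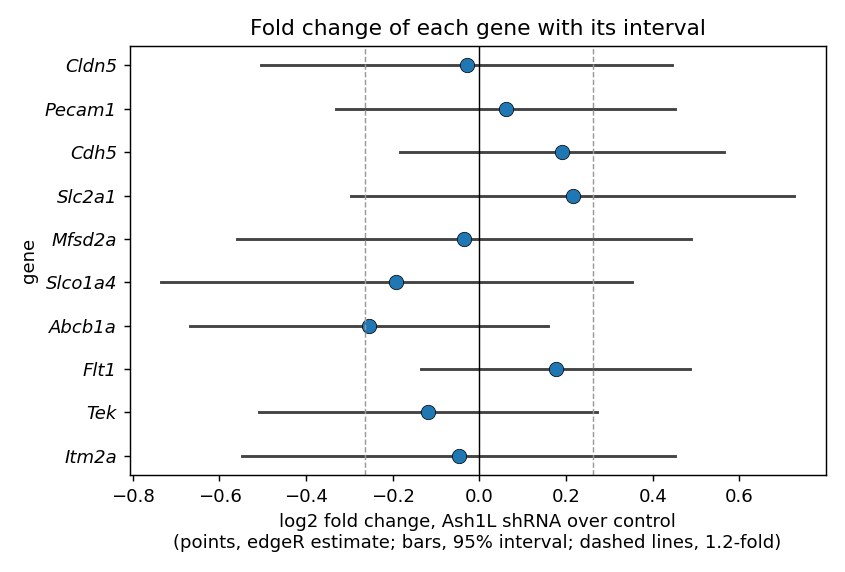
Log2 fold change of *Ash1L* shRNA over control (horizontal axis) for the 10 genes (vertical axis), with the edgeR estimate as a point and its 95% interval as a bar; dashed lines mark 1.2-fold in each direction. The intervals of 10 of 10 genes cross 0, from the lowest estimate in *Abcb1a* (-0.26) to the highest in *Slc2a1* (0.22).

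The intervals leave room for changes of moderate size. At the outer bound they reached a ratio of 0.60 for *Slco1a4* and of 1.65 for *Slc2a1*, beyond the 1.2-fold size used for the calls. The 10 genes had between 207 and 2505 counts in each sample.

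The shRNA samples differed from each other more than the controls did. The log2 difference of shRNA sample 2 from sample 1 was -0.68 in *Slco1a4*, -0.61 in *Itm2a*, -0.46 in *Abcb1a*, -0.44 in *Cldn5*, -0.35 in *Tek* and -0.22 in *Pecam1*. It was 0.63 in *Slc2a1*, 0.56 in *Mfsd2a*, 0.25 in *Flt1* and 0.14 in *Cdh5*. Thus 6 genes were lower and 4 higher in the second sample. The median size of this difference was 0.45 over the 10 genes and 0.23 over the genes tested, whereas between the controls it was 0.11 and 0.17. The shRNA difference was the larger in 9 of 10 endothelial genes, and in 60.0% of the genes tested.

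**Figure D3:**
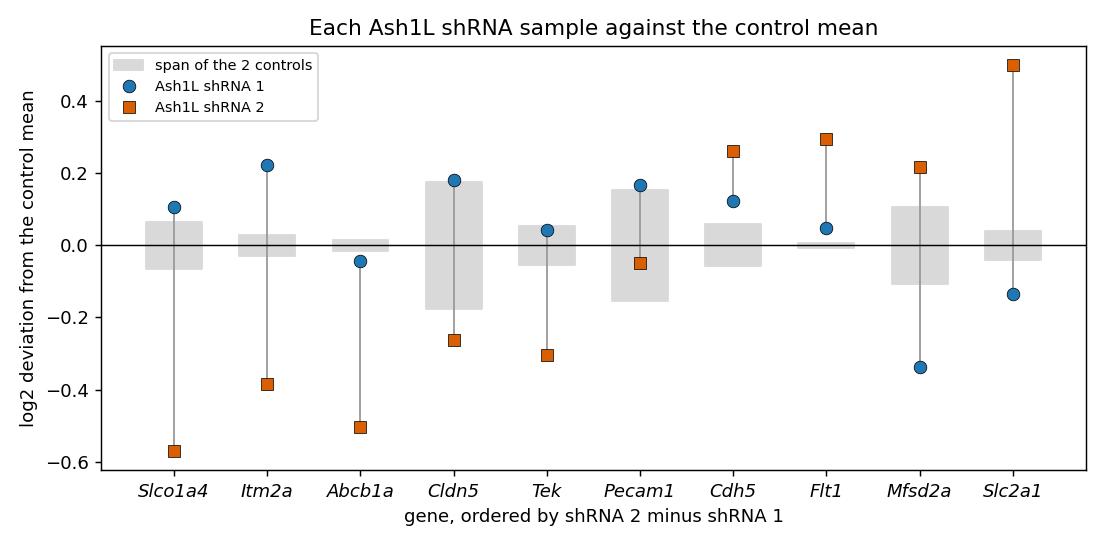
Log2 deviation from the control mean (vertical axis) of *Ash1L* shRNA sample 1 (blue circles) and sample 2 (orange squares) for each gene, ordered by the difference between them; the grey bars span the 2 controls. *Slco1a4* has the lowest orange square (-0.57) and *Slc2a1* the highest (0.50).

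Leaving out shRNA sample 1 changed the calls. With sample 2 alone against the controls, 3 genes were DOWN, *Slco1a4* (-0.58), *Itm2a* (-0.39) and *Abcb1a* (-0.51), and *Slc2a1* was UP (0.49), where 16.5% of the genes in that fit were DOWN and 14.4% UP. In that fit the lone shRNA sample is assumed to vary as the controls do. With sample 1 alone against the controls, the estimates of *Cldn5* (0.18), *Slco1a4* (0.11), *Itm2a* (0.23), *Slc2a1* (-0.13) and *Tek* (0.05) had the opposite sign to those from both samples.

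Sample 2 also stood apart in markers of other cell types. The summed level of 6 microglia and macrophage markers was 397 and 417 CPM in the controls, 433 in shRNA sample 1 and 207 in shRNA sample 2 (1 DOWN of 6). The largest part was *Csf1r*, with 190 and 217 CPM against 200 and 93.0. Not all 6 followed the sum. *Cd163* had 2.20 and 3.02 CPM against 2.92 and 4.10, and *Mrc1*, the DOWN gene, 13.95 and 14.5 against 10.7 and 9.79. The summed level of 5 choroid plexus markers was 7.79 and 7.44 CPM in the controls and 8.10 and 20.5 CPM in the shRNA samples (1 UP of 4 tested). The higher choroid sum in sample 2 came from single genes, with *Aqp1* at 8.34 CPM and *Prlr* at 5.84 CPM there, whereas *Ttr*, the most abundant transcript of that epithelium, had 0.425 and 1.37 CPM in the controls and 0.146 and 1.11 CPM in the shRNA samples, and *Folr1* had at most 0.338 CPM. The sum of 7 astrocyte markers was 5319 and 5673 CPM in the controls and 4332 and 3194 CPM in the shRNA samples, with 4 of 7 DOWN. Most of that sum was *Slc1a2*, with 3158 and 3465 CPM against 2756 and 2012. *Gfap* (319 and 352 CPM against 349 and 322), *Aqp4* (230.6 and 199.5 against 209.6 and 253.4) and *Kcnj10* overlapped between the groups. The sum of 6 neuron markers read 6133 and 6441 CPM against 5453 and 4284 CPM, with 1 of 6 DOWN. The 12 pericyte and smooth muscle markers, the cells next to the endothelium, summed to 285 and 303 CPM in the controls and 312 and 309 CPM in the shRNA samples (2 UP of 12). Vascular fibroblast markers summed to 81.8 and 138 CPM against 143 and 155 (1 DOWN and 2 UP of 6). Platelet markers summed to 8.85 and 10.2 against 8.58 and 14.2 (0 called of 3 tested), and oligodendrocyte markers to 2284 and 2536 against 2457 and 2223 (0 of 5). T cell markers summed to 9.28 and 15.6 against 3.36 and 2.65 (4 DOWN of 5). Of these DOWN genes, *Cd3e*, *Cd3d* and *Cd3g* passed the filter on low counts only through the controls, with 2 to 11 counts in the shRNA samples. Red blood cell markers summed to 75.3 and 52.6 CPM against 45.4 and 46.9 (1 DOWN of 2 tested), with *Hba-a1* and *Hba-a2* at 0 counts in each sample. The part of these shifts in the endothelial values was not tested. The numbers of DOWN and UP markers are to be read against 8.28% and 8.61% of the genes tested, and each list is short.

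The RefSeq promoters of the genes at the ends of the ordering by shRNA sample are shown, because among the 8 genes with a window those lower in sample 2 had fewer CpG dinucleotides than those higher in it. RefSeq (GRCm38.p6) had a promoter window, 250 bases before to 50 after the start, for 8 of the 10 genes, all but *Pecam1* and *Cdh5*. Each is printed 5′ to 3′ on the strand of the gene, with CG in capitals: *Slco1a4* at chr6:141856171-141856470, minus strand, and *Slc2a1* at chr4:119108495-119108794, plus strand.
Slco1a4: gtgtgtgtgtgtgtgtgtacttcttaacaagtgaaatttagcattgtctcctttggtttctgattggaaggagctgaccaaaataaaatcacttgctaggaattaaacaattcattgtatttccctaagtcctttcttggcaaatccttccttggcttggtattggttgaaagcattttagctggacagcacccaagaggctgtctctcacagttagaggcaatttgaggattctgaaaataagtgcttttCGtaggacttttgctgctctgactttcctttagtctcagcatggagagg
Slc2a1: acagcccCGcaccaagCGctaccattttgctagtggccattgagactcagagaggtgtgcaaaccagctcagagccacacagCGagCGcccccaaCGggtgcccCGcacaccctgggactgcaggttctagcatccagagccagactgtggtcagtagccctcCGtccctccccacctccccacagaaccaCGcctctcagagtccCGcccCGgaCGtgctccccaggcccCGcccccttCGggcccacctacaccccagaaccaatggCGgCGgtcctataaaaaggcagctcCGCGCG

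The *Slco1a4* window held 1 CG and that of *Slc2a1* held 18, where the median of 32851 RefSeq windows was 7 and 29.7% held 18 or more. Those windows are not limited to tested genes. Of 9385 tested genes with 1 RefSeq window, 6684 held more than 12 CG. CG reads the same on both strands. Among the 5 genes with a window that were lower in sample 2, *Slco1a4* held 1, *Abcb1a* 2, *Tek* 3, *Itm2a* 7 and *Cldn5* 12. The *Abcb1a* window lies at a RefSeq start far upstream of the GENCODE gene, as given below. The 3 genes that were higher in sample 2 held more, *Slc2a1* 18, *Mfsd2a* 22 and *Flt1* 29. This contrast was noticed after the values were seen and carries no test. Across the 9385 tested genes with 1 RefSeq window the contrast was slight. Among the 6684 with more than 12 CG, 48.9% were higher in sample 2 than in sample 1. Among the 2701 with 12 or fewer it was 43.8%. That cut is the highest CG number among the 5 genes lower in sample 2, and the 8 genes with a window are included. Without a cut, the rank correlation (Spearman) of CG number with the log2 difference of sample 2 from sample 1 was 0.077.

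*Abcb1a* has a near copy, *Abcb1b*, the P-glycoprotein gene of the adrenal gland and other tissues, and reads from sequence they share may be given to either. The coding sequence of each is 3828 bases long in GENCODE vM21. Of the 50-base windows in the *Abcb1a* coding sequence, 20.3% occurred unchanged in *Abcb1b*, and the longest shared run was 338 bases, from position 1357 to 1694 of *Abcb1a* counted from the first base of the start codon. Its first 150 bases, identical in both genes, are shown as an example of sequence from which a read cannot be assigned.
Abcb1a and Abcb1b: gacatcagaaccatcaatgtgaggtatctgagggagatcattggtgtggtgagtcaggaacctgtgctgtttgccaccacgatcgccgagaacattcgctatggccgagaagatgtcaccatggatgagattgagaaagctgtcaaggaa

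The copies did not share a direction. *Abcb1b* was read at 8.92 and 6.98 CPM in the controls, and at 12.5 and 18.0 CPM in the shRNA samples. Both shRNA samples were above both controls, with a log2 fold change of 0.95 ± 0.25 that met the UP definition (unadjusted p = 0.00783, adjusted p = 0.253 in edgeR's quasi-likelihood test). The call was lost without control sample 2 (0.77), and the difference between the fold changes of both copies was not tested. *Abcb1b* made up 14.1% of the summed *Abcb1a* and *Abcb1b* counts in control 1 (95% Wilson interval 12.01 to 16.6) and 11.6% in control 2 (10.3 to 13.1). It made up 19.4% in shRNA sample 1 (17.6 to 21.3) and 32.3% in shRNA sample 2 (29.6 to 35.0). The summed level was 63.1 and 60.1 CPM in the controls and 64.5 and 55.8 CPM in the shRNA samples, so that the sum overlapped between the groups while the share did not. These intervals cover counting error only, and how reads common to both genes were counted is not given in the sources used here.

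**Figure D4:**
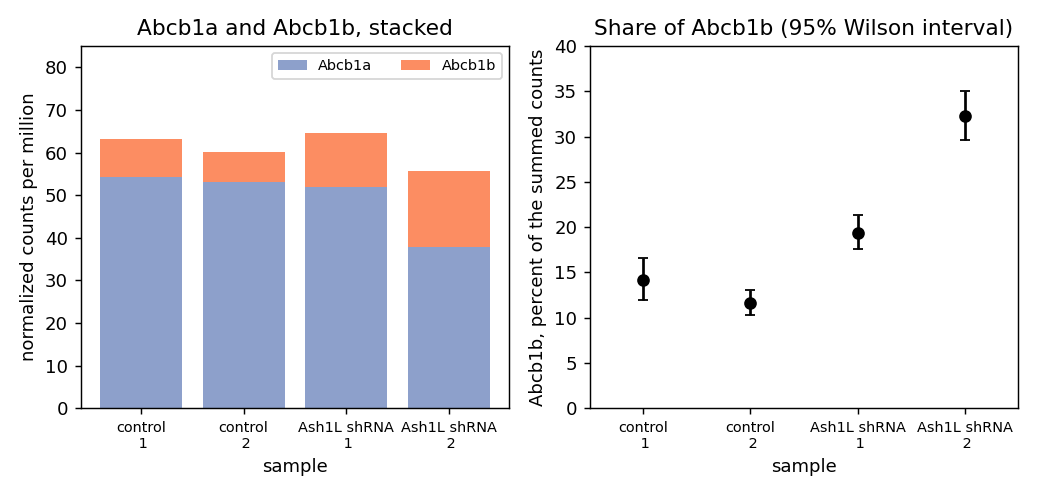
Left, *Abcb1a* (blue) and *Abcb1b* (orange) stacked in normalized CPM for each sample; right, *Abcb1b* as a percent of the counts of both, with 95% Wilson intervals. The share is 14.1% and 11.6% in the controls and 19.4% and 32.3% in the shRNA samples, while the stacked height lies between 55.8 and 64.5.

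The promoter windows of the pair are shown since they differ in their CG content. That of *Abcb1a* lies at chr5:8566841-8567140, at a RefSeq start far upstream of the GENCODE gene, which begins at 8660077. That of *Abcb1b* lies at chr5:8797897-8798196 and spans the GENCODE start of the gene at 8798147. Both are on the plus strand of GRCm38.p6. Which start the counted *Abcb1a* transcripts used was not tested.
Abcb1a: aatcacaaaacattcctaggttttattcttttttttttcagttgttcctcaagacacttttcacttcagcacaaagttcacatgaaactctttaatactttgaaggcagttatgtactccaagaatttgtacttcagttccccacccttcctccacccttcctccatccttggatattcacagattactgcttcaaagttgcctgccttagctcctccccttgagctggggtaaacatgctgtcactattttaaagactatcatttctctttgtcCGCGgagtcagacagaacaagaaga
Abcb1b: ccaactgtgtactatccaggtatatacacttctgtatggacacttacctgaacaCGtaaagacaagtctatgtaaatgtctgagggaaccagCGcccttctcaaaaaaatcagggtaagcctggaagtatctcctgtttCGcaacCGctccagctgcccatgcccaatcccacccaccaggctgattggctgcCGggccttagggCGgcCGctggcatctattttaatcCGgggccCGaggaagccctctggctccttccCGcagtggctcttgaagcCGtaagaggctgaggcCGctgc

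*Abcb1a* held 2 CG in this window and *Abcb1b* held 12, and 39.6% of the RefSeq windows held 12 or more. Among tested genes with 1 RefSeq window, 6684 of 9385 held more than 12. *Slco1a4* also has relatives in the files, of which *Slco1a1* and *Slco1a6* had 0 counts in the 4 samples and *Slco1a5* had between 1 and 9. The longest run of *Slco1a4* coding sequence shared with any of the 3 was 139 bases, with *Slco1a5*. In the annotation, *Slc2a1* overlaps the antisense gene *Gm12868* over 105 exonic bases and *Abcb1a* overlaps *Gm42686* on the other strand over 242 bases, neither of which had a row in the count files.

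Further genes of the endothelium and the barrier were read in 9 lists, drawn up with earlier results of these data known. The lists held 102 genes, of which 100 were tested. Of these, 2 were DOWN and 17 UP, beside 8.28% and 8.61% of the genes tested, with adjusted p from 0.24 to 0.29 in edgeR's quasi-likelihood test and 0 under 0.05. Their median log2 fold change was 0.10. Because the choice of genes was not blind to these data, the share of UP genes carries no test of the endothelium as a set. The 17 include *Sele*, which passed the filter on low counts only through the shRNA samples. The counts moved with single samples: without control 1 there were 1 DOWN and 8 UP (background 4.13% and 5.07%), without control 2 there were 0 and 9 (1.86% and 2.57%), without shRNA sample 1 there were 11 and 27 (16.5% and 14.4%), and without shRNA sample 2 there were 2 and 15 (5.05% and 6.25%). The counts in single lists below are to be read against the same 8.28% and 8.61%, and with 5 to 17 genes a list they are few.

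**Figure D5:**
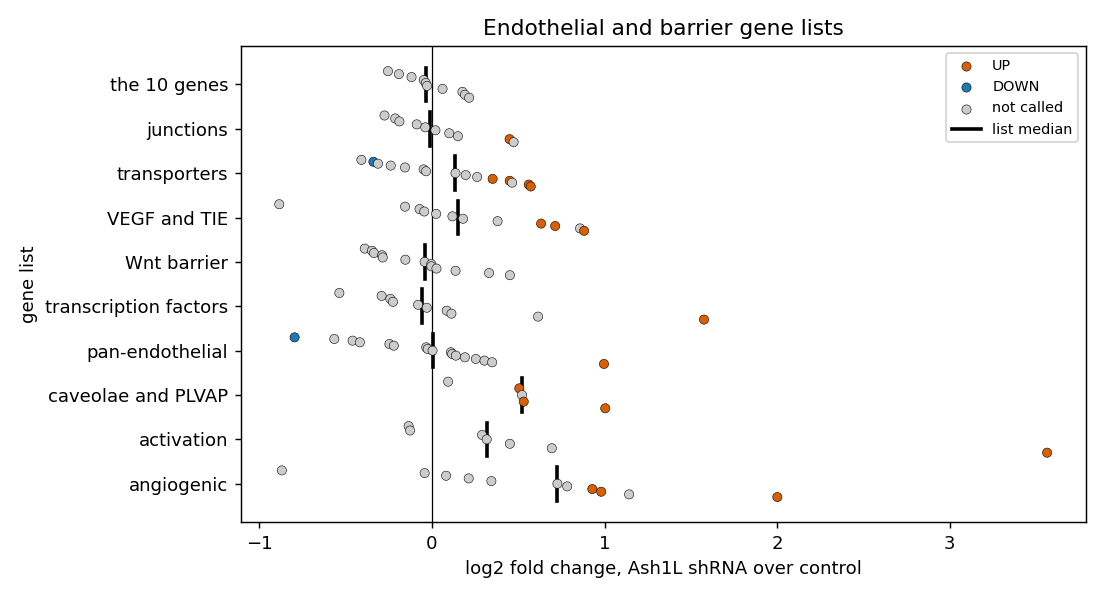
Log2 fold change of *Ash1L* shRNA over control (horizontal axis) for the 10 genes and 9 further lists (vertical axis), 1 point per tested gene, orange for UP, blue for DOWN and grey for genes not called; black bars mark list medians. The 10 genes have no coloured point, and the caveolar list (median 0.52) and the angiogenic list (median 0.73) lie farthest to the right. The shift of both was larger in shRNA sample 2 than in sample 1.

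In the junction list, 1 of 10 genes was UP and 0 DOWN (median log2 fold change -0.01). *Cgnl1*, the gene of the junction scaffold paracingulin, rose from 29.0 and 31.9 CPM to 43.2 and 40.03 CPM (0.45 ± 0.13), a call lost without control 1 (0.39). *Tjp1*, which encodes the scaffold ZO-1 that anchors claudins, had 181 and 178 CPM against 183 and 166, and *Cldn12* had 54.7 and 54.6 against 52.5 and 58.3, so that both overlapped between the groups.

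In the transport list, 4 of 15 genes were UP and 1 DOWN (median 0.14). Of the called genes, *Slc7a5*, *Slc7a1* and *Slc38a3* belong to amino acid carriers, and they did not share a direction. Others of that kind in the list overlapped between the groups. *Slc3a2* had 101.8 and 113.4 CPM against 98.83 and 109.5, and *Slc38a5* had 7.22 and 4.87 against 10.95 and 5.45. *Slc7a5*, the large neutral amino acid carrier LAT1, rose from 51.5 and 52.5 CPM to 62.7 and 79.6 CPM (0.45 ± 0.14). *Slc7a1*, a carrier of cationic amino acids, rose from 51.0 and 58.2 CPM to 69.3 and 92.0 CPM (0.56 ± 0.17). *Slc38a3*, a glutamine carrier also abundant in astrocytes, fell from 83.5 and 78.1 CPM to 65.2 and 62.4 CPM (-0.34 ± 0.11). Outside that family, *Slc16a1*, the lactate carrier MCT1, rose from 89.0 and 91.4 CPM to 114 and 154 CPM (0.57 ± 0.16), and *Abcc4*, an efflux pump, from 20.5 and 20.0 CPM to 25.9 and 25.7 CPM (0.35 ± 0.13). The *Abcc4* call was made in 7 of 15 other settings, and DESeq2 did not make it. These 15 settings kept the 1.2-fold size, so the 1.5-fold rule is not among them. The *Abcc4* call was lost without control 1 (0.38), without control 2 (0.33) and without shRNA sample 1 (0.34). The *Slc7a5* call, made in 12 of 15, was lost without control 1 (0.45), control 2 (0.46) or shRNA sample 2 (0.27), and that of *Slc38a3*, made in 11 of 15, without the same samples (-0.28, -0.39 and -0.30). The calls of *Slc16a1* (0.56) and *Slc7a1* (0.48) were lost without control 1. *Tfrc*, the transferrin receptor, had 263 and 214 CPM against 245 and 301, and *Slc6a6*, a taurine carrier, had 144 and 167 against 155 and 124, both overlapping.

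In the list of VEGF and TIE ligands and receptors, 3 of 12 genes were UP and 0 DOWN (median 0.15), and all 3 encode receptors or a co-receptor of VEGF. *Kdr*, VEGF receptor 2 and the main signalling partner beside *Flt1*, rose from 25.6 and 25.8 CPM to 35.7 and 44.2 CPM (0.63 ± 0.15), and was called in 15 of 15 other settings. *Flt4*, VEGF receptor 3, rose from 3.04 and 3.19 CPM to 4.49 and 5.79 CPM (0.71 ± 0.28), a call made in 8 of 15 settings and lost without control 1 (0.69), control 2 (0.75) or shRNA sample 2 (0.52). *Nrp1*, a co-receptor that neurons express too, rose from 109 and 88.3 CPM to 139 and 224 CPM (0.88 ± 0.24; call lost without control 2, 0.73). *Vegfa*, a ligand, had 69.7 and 57.5 CPM against 69.0 and 74.9, and *Ptprb*, the phosphatase VE-PTP that acts on TIE2, had 64.4 and 80.2 against 76.7 and 61.0. Neither was separated between the groups. The co-receptor *Nrp2* had 39.65 and 40.46 CPM against 35.25 and 42.49 (-0.04 ± 0.14). The ligand *Vegfb* was lower in both shRNA samples, 18.2 and 18.7 CPM against 14.2 and 5.64 (-0.88 ± 0.41, not called). Over the list, 8 genes had a log2 fold change above 0 and 4 below. The difference between *Kdr* and *Flt1* was not tested.

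In the Wnt barrier list, 0 of 13 genes were called in either direction and 0 had an unadjusted p under 0.05 in edgeR's quasi-likelihood test (lowest 0.0971; 0 and a lowest of 0.114 with DESeq2), and the median was -0.04. *Lrp6*, a Wnt co-receptor, had 116 and 101 CPM against 109 and 131, and *Wnt7b*, a ligand made by neural cells, 43.7 and 53.5 against 33.1 and 43.5 (-0.35 ± 0.18). Among 10 endothelial transcription factors (median -0.06) 1 was UP, *Sox7*, with 10 and 15 counts in the controls and 35 and 41 in the shRNA samples (1.58 ± 0.51). Its call was lost without control 2 (1.18) and without shRNA sample 2 (1.25). Of the ETS factors that maintain endothelial identity, *Erg* had 5.38 and 5.10 CPM against 7.12 and 4.15, and *Fli1* had 13.5 and 14.3 against 13.3 and 10.6, of which only the second kept the shRNA samples on one side, the lower, of the controls.

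Among 17 pan-endothelial genes the median was 0.00, with 1 UP and 1 DOWN. *Cd93*, a receptor of the endothelial surface, rose from 21.8 and 25.96 CPM to 36.0 and 59.8 CPM (1.00 ± 0.25). *S1pr1*, the receptor for sphingosine 1-phosphate that supports junctions and is also found on astrocytes, fell from 183 and 164 CPM to 125 and 74.6 CPM (-0.80 ± 0.25). The *S1pr1* call was lost without control 1 (-0.71) or control 2 (-0.88), and that of *Cd93* without control 1 (0.89). *Podxl*, the gene of podocalyxin, had 43.3 and 37.8 CPM against 44.5 and 42.9, and *Cd34*, a surface sialomucin, 122 and 115 against 108 and 52.2.

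The caveolar and permeability list had 3 UP of 5 (median 0.52). Its median log2 deviation from the control mean was 0.32 in shRNA sample 1 and 0.67 in shRNA sample 2. *Cav1* and *Cav2* encode the coat proteins of caveolae, and *Ptrf* (Cavin1) their adaptor. *Cav1* rose from 18.3 and 18.2 CPM to 22.8 and 29.1 CPM (0.51 ± 0.17). *Cav2* rose from 67.6 and 40.9 CPM to 100.2 and 116 CPM (1.00 ± 0.24), and *Ptrf* from 22.2 and 17.3 CPM to 27.4 and 29.3 CPM (0.53 ± 0.17). *Cav2* was called in 15 of 15 other settings, *Cav1* in 12, not without control 1 (0.52), control 2 (0.50) or shRNA sample 2 (0.32), and *Ptrf* in 12, not without control 2 (0.35) or with the GC content offset, alone or with the replicate block. *Plvap*, the diaphragm protein of leaky vessels, had 3.75 and 3.82 CPM against 4.45 and 6.46 (0.52 ± 0.29) and *Sdpr* (Cavin2), another caveolar adaptor, 12.9 and 11.2 against 11.8 and 13.9.

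Among the activation genes, 1 of 7 tested was UP (median 0.32), *Sele*, which passed the filter on low counts only through the shRNA samples and was not tested where 10 counts in every sample were required. This gene of E-selectin had 2 and 3 counts in the controls and 26 and 34 in the shRNA samples, a ratio of 12.3 in summed counts per normalized library (exact 95% interval 4.98 to 39.1, counting error only). *Vcam1* had 39.8 and 46.6 CPM against 39.1 and 39.7, and *Icam1* 11.8 and 11.6 against 16.9 and 12.3 (0.32 ± 0.20). Among the angiogenic genes, 3 of 11 tested were UP (median 0.73). The median log2 deviation of these 11 from the control mean was 0.19 in shRNA sample 1 and 1.03 in shRNA sample 2. *Col4a1* and *Col4a2*, the collagen IV chains of the vascular basement membrane, rose from 81.1 and 92.8 CPM to 117 and 214 CPM (0.93 ± 0.28) and from 56.7 and 63.3 CPM to 84.8 and 152 CPM (0.98 ± 0.27). Neither collagen call held without control 1 (0.85 and 0.92) or without control 2 (1.03 and 1.06). *Plaur*, the urokinase receptor, which myeloid cells also express, rose from 1.204 and 1.37 CPM to 3.90 and 6.56 CPM (2.001 ± 0.38), in 15 of 15 other settings. *Apln*, a peptide of tip cells that neurons also make, had 47.8 and 26.01 CPM against 29.0 and 10.9, and *Pdgfb*, which recruits pericytes, 34.7 and 30.6 against 32.9 and 36.1.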

How the data were processed

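Raw gene counts of 4 bulk PFC RNA samples were used as deposited, 1 file per sample. Per the paper's methods, the authors made stranded total RNA libraries after ribosomal RNA removal, aligned paired reads to mm10 with STAR and counted them per gene symbol with featureCounts; strand and multi-mapping settings are not given in the sources used here. The labels give 2 samples per group, called biological duplicates. Each p-value sets the group difference against the spread between same-group samples, estimated with information shared across the genes tested. The sources differ on the mice behind each sample, as stated above.

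Counts were fitted in R 4.3.3 with edgeR 4.0.16 (filterByExpr, TMM, glmQLFit with robust dispersion, glmQLFTest on group) over 16232 genes, with Benjamini-Hochberg adjustment and a biological coefficient of variation of 0.173. DESeq2 1.42.0 was an alternative. The script was tested on simulated data. TPM used exonic lengths from GENCODE vM21, and log2 deviations a pseudocount of 0.1 CPM. Same-group samples differed beyond sampling noise (chi-square per degree of freedom 15.3 and 44.5). The 10 genes and the gene lists were chosen with earlier results of these data known, and 6 list genes were matched by older symbols. Named are the 10 genes, and from each further list every called gene and the 2 other genes with the highest mean level, with *Ash1l* and the paralogs. A few more list genes are named where they differed from the called genes of their list.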

Additional observations from a re-analysis of the deposited data

How the results depend on the processing

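The 10 genes had 0 DOWN and 0 UP in 12 of 12 alternatives that kept the 4 samples. Leaving out 1 sample gave 0 to 3 DOWN and 0 to 1 UP, and a median log2 fold change from -0.16 to 0.12. With library-size scaling *Cldn5* (0.0074) and *Mfsd2a* (0.0085) turned to the positive side. With 1 sample left out, log2 fold changes ran from -0.27 to 0.18 in *Cldn5*, -0.33 to 0.22 in *Mfsd2a*, -0.0935 to 0.23 in *Pecam1*, -0.58 to 0.11 in *Slco1a4*, -0.39 to 0.23 in *Itm2a*, -0.13 to 0.49 in *Slc2a1*, and -0.31 to 0.0470 in *Tek*, and without a change of sign from -0.51 to -0.04 in *Abcb1a*, 0.05 to 0.29 in *Flt1* and 0.12 to 0.25 in *Cdh5*. Same-numbered samples shared only a number (correlation of their deviations -0.11). The replicate block left 0 of the 10 genes called and gave 1020 DOWN and 1052 UP over the genes tested. The crossed replicate block, chosen after seeing the data, gave 1736 DOWN and 1541 UP. Over the 9 further lists, DOWN genes numbered 5 with the replicate block, 4 with the block and the GC content offset, 4 with the crossed block and 1 at 1.5-fold, where UP genes numbered 10. The calls of *Cgnl1*, *Abcc4*, *Slc7a5*, *Slc16a1*, *Slc7a1*, *Cav1*, *Ptrf* and *Slc38a3* fell short of 1.5-fold. The block with the GC offset gave 834 UP over the genes tested, and the 1.5-fold rule gave 491 DOWN and 765 UP. With 1 sample left out the lists had 0 to 11 DOWN and 8 to 27 UP, and the genes tested 306 to 2717 DOWN and 423 to 2368 UP. Where the cause is not in the setting itself (fewer samples, a higher fold), the cause was not tested. The median over the genes tested was -0.003 with TMM and reached 0.04 with library-size scaling.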
